A study of Mus musculus with 21 samples.

Results

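Nascent RNA of 4 genes is described here: Srf, which encodes serum response factor, and Mef2a, Mef2c and Mef2d, which encode myocyte enhancer factor 2 proteins. They were picked by name as the SRF and MEF2 transcription factors, and are 4 of the 24984 genes in the count table. Mef2b, the remaining MEF2 gene, was listed at 0 counts in every library. Its span on chromosome 8 lies wholly inside that of Gm45929, which had 83 to 165 counts per library, so how reads were divided between both is uncertain.

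SRF and the MEF2 proteins are related DNA-binding proteins of the MADS-box family and are well known for linking neuronal activity to transcription. SRF binds the CArG box and works with 2 kinds of partner: ternary complex factors of the ETS family, which respond to MAP kinase signalling, and myocardin-related factors, which respond to free actin. In neurons it is needed for the full induction of immediate early genes such as Fos and Egr1. MEF2 proteins bind an A/T-rich site and are held inactive by class IIa histone deacetylases until calcium signals release them, in part through the phosphatase calcineurin. MEF2 proteins are known to restrain the number of excitatory synapses, and Mef2c in particular is needed for cortical development.

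The assay was BrU-seq, in which cells build bromouridine into new transcripts and the labelled RNA is captured and sequenced. The cells were cortical cultures of CD1 mice at day 17 in vitro, with 3 biological replicates of mixed sex per group. All cultures were preincubated for 30 min with the solvent DMSO or with 25 µM MM401, a peptidomimetic that blocks the binding of the histone H3 lysine 4 methyltransferase MLL1 to WDR5. Bicuculline at 40 µM, which blocks GABA-A receptors and raises network activity, or water was then present for 1 h or 4 h, and 2 mM bromouridine for the last 30 min. The 7 groups were DMSO with bicuculline for 1 h, DMSO with bicuculline for 4 h, DMSO with water for 4 h, and MM401 with each of bicuculline and water for 1 h and for 4 h. A DMSO group with water for 1 h was not analysed here, so bicuculline for 1 h in DMSO was set against water for 4 h. In that comparison treatment and duration cannot be told apart.

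The promoter of Srf holds CArG boxes and is shown because SRF itself is known to bind them. The 250 bases before the start site (RefSeq, GRCm38.p6, chr17:46556163-46556412, minus strand) are printed with the CArG boxes in capitals.
Srf: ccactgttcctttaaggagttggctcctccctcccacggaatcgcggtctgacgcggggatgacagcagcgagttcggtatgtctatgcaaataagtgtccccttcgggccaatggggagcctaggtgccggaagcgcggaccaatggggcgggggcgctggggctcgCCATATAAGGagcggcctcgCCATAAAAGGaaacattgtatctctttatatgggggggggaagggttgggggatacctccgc

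Both boxes, CCATATAAGG and CCATAAAAGG, lie close together, beginning 82 and 62 bases before the start site. A CArG box was found in 1.63% of 32841 promoter windows of 300 bases, and 6 windows (0.0183%) held 2 or more. The Srf window also held 1 EGR site (GCGNGGGCG) and 1 ETS core (CCGGAA), motifs present in 5.55% and 14.9% of windows. Motifs were searched on both strands, with the CRE as TGACGTCA, and no match of 1 motif overlapped that of another in these windows. Of the 12 rapid SRF target genes listed below, 8 had a window and 1 of these (Egr2) held a CArG box.

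Mef2a held a MEF2 site across its start site, shown because MEF2 proteins are the family it belongs to. The 30 bases around it (RefSeq, GRCm38.p6, chr7:67372841-67372870, minus strand) have the site in capitals.
Mef2a: ggcctgactcCTAAAAATAGccccggtgtg

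A MEF2 site was found in 3.19% of windows. The Mef2a window also held an ETS core on the opposite strand. The 3 windows of Mef2c and the single window of Mef2d held no match to any of the 5 motifs searched, a statement about these letters in these windows only. GC content was 63.3% for Srf, 62.3% for Mef2a and 72.0% for Mef2d, against 35.7%, 47.0% and 48.3% for the windows of Mef2c. Binding of any factor was not measured.

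The 20 libraries used held 49886348 to 87939384 counts, and 16959 genes passed the filter on low counts, among them all 4 genes. Replicate 3 of MM401 with water for 4 h held 316741 counts and was left out; its values are given at the end. Markers of excitatory neurons (5 of 5) and inhibitory neurons (5 of 5) were above 0 in every library. So were 5 of 5 for astrocytes, 6 of 6 for the oligodendrocyte lineage and 6 of 6 for microglia. These libraries detected 18840 to 19277 genes each, so a count above 0 is a weak sign of a cell type. Summed levels were 644 to 1118 CPM for excitatory and 334 to 695 CPM for inhibitory neurons. They were 414 to 846 CPM for astrocytes, 160 to 216 CPM for the oligodendrocyte lineage and 44.2 to 74.5 CPM for microglia. Endothelial and mural markers had 4 of 6 members above 0 in every library and a summed level of 8.10 to 13.5 CPM. Fibroblast markers had 3 of 4 members above 0 in every library and a summed level of 1.82 to 5.24 CPM. Levels are CPM, counts relative to the library total after scaling by the TMM method. In bulk samples fewer cells of a type and less RNA per cell cannot be told apart.

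The 4 genes differed widely in transcription, and Mef2c stood far above the rest. Per kilobase of gene, the mean level over 20 libraries was 11.8 CPM per kb for Mef2c, 2.09 for Mef2d, 2.05 for Mef2a and 1.01 for Srf. On that scale 99.4% of the tested genes lay below Mef2c, 87.4% below Mef2d, 86.9% below Mef2a and 66.7% below Srf. In counts per library, Mef2c had 85731 to 178111, Mef2a 13783 to 25129, Mef2d 2693 to 5699 and Srf 329 to 1188, so that counting error was largest for Srf.

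Their positions differ as much in size (mm10, positions as the table gives them, whose starts probably count from 0). Srf spans chr17:46546838-46556162 on the minus strand, 9325 bases with the microRNA Mir6976 inside it at 0 counts. Mef2a spans chr7:67231162-67372858 on the minus strand (141697 bases), and Mef2c spans chr13:83504033-83667079 on the plus strand (163047 bases). Mef2d spans chr3:88142371-88172091 on the plus strand (29721 bases). It shares 533 bases with 1700113A16Rik on the opposite strand, which had 20 to 77 counts per library, a small part of the counts of Mef2d. Counts cover the whole gene, introns included.

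**Figure D1:**
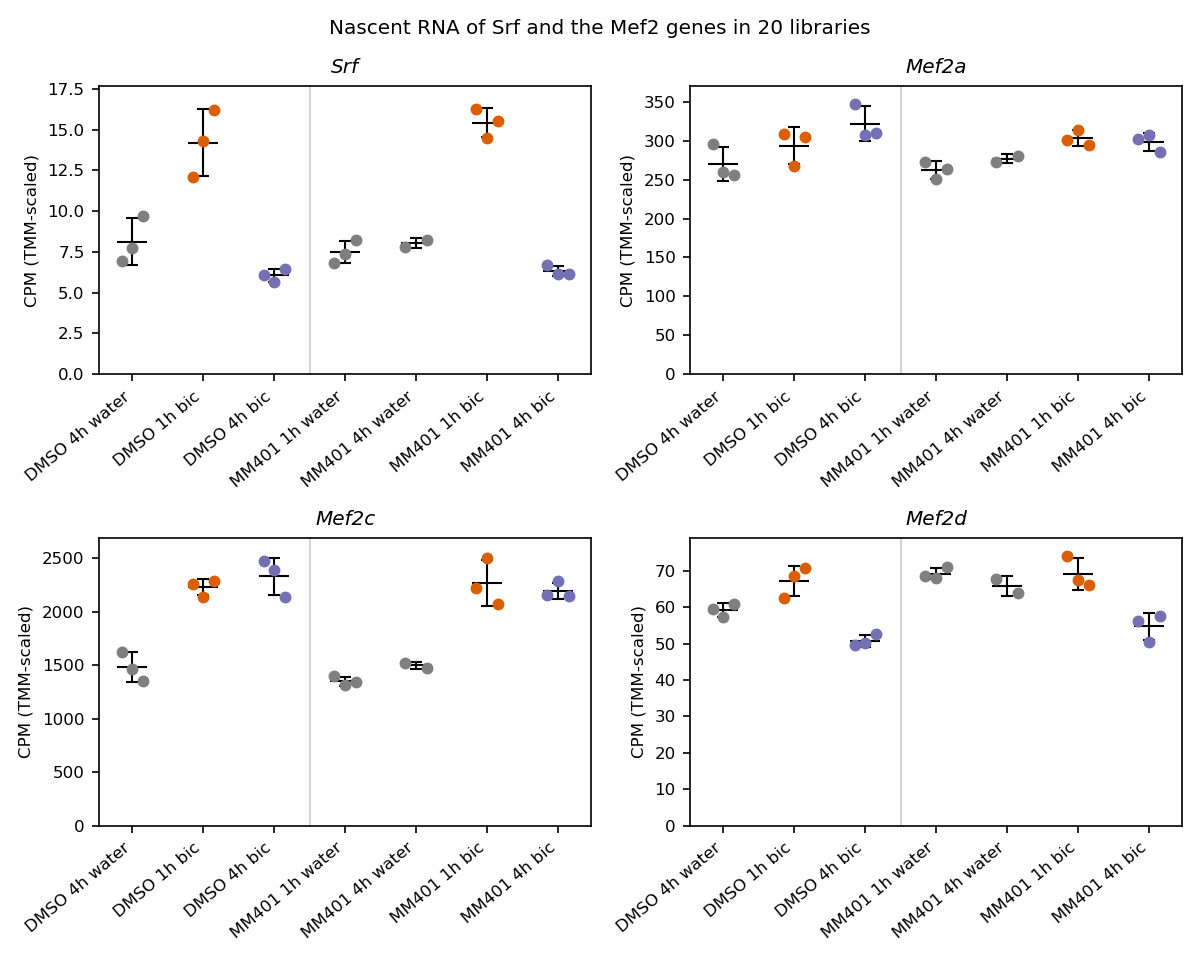
Nascent RNA of Srf, Mef2a, Mef2c and Mef2d (TMM-scaled CPM, linear axis from 0) in 7 groups, with a point per library and the mean and SD per group (n = 3, n = 2 for MM401 with water for 4 h). Srf is highest in both groups with bicuculline for 1 h (12.1 to 16.2 CPM), and Mef2c is higher in all 12 bicuculline libraries (2076 to 2498 CPM) than in all 8 water libraries (1316 to 1626 CPM).

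Srf rose within 1 h of bicuculline and was below the water level by 4 h. In DMSO with water for 4 h it measured 6.95, 7.71 and 9.72 CPM. With bicuculline for 1 h it measured 12.1, 14.3 and 16.2 CPM, all above the water libraries. With bicuculline for 4 h it measured 6.08, 5.65 and 6.46 CPM, all below them. The group means were 8.12 ± 1.43, 14.2 ± 2.05 and 6.06 ± 0.407 CPM (SD, n = 3 each).

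The rise of Srf in DMSO at 1 h was 0.80 ± 0.11 on the log2 scale (SE), a 1.74-fold change (edgeR quasi-likelihood test, Benjamini-Hochberg adjusted p = 6.52e-06). In this comparison 3 of the 4 genes were called, all higher, where 44.6% of all tested genes were called, 20% higher and 24.5% lower. At 4 h Srf fell by 0.42 ± 0.12 (adjusted p = 0.00436), and all 4 genes were called, 2 higher and 2 lower, against 49.2% of all genes, 23.7% higher and 25.5% lower. Both DMSO comparisons use the same water libraries. The fall at 4 h was 0.24 with an adjusted p of 0.0966 when a trend with gene length was taken out of each library, so it was not called under that setting.

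MM401 cultures gave the same course for Srf, here against water of the same duration. In water for 1 h it measured 6.84, 7.39 and 8.21 CPM, and with bicuculline for 1 h 16.2, 14.5 and 15.5 CPM, so the groups lay far apart. The rise was 1.04 ± 0.11 on the log2 scale, 2.06-fold (adjusted p = 2.22e-07). In water for 4 h the 2 libraries had 7.82 and 8.25 CPM, and with bicuculline for 4 h 6.68, 6.15 and 6.13 CPM. The fall at 4 h was 0.35 ± 0.13 (adjusted p = 0.036), with no overlap between groups. That call was lost without replicate 2 or 3 of MM401 with bicuculline for 4 h (-0.33 and -0.32), and with the shallow library included (-0.33, adjusted p = 0.114). Without replicate 1 or 2 of MM401 with water for 4 h the log2 change was -0.41 and -0.34, but 1 library was then left in that group.

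Between 1 h and 4 h of bicuculline Srf fell more than nearly all other genes. The decrease was 1.22 ± 0.12 on the log2 scale in DMSO, 2.34-fold (adjusted p = 3.45e-08), and 1.28 ± 0.12 in MM401, 2.44-fold (adjusted p = 2.41e-08). Only 1.70% and 1.52% of the tested genes had a lower log2 change in these comparisons. Of all genes, 19.1% were called higher and 15.2% lower in DMSO (34.2% in all), and 17.5% higher and 16% lower in MM401 (33.6% in all). Srf and Mef2d were the 2 of 4 called in each, both lower. No library at 4 h overlapped with any at 1 h for either gene. The shares over all genes depend on scaling. In DMSO 3233 were higher and 2572 lower, against 2015 and 3131 with plain library totals. In MM401 2974 were higher and 2717 lower, against 3603 and 1943.

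Mef2c was higher with bicuculline at both times. In DMSO with water for 4 h it measured 1626, 1467 and 1353 CPM. With bicuculline it measured 2256, 2141 and 2287 CPM at 1 h and 2470, 2387 and 2137 CPM at 4 h. Every bicuculline library was above every water library. The rise was 0.59 ± 0.088 on the log2 scale at 1 h (adjusted p = 1.34e-05), and 0.65 ± 0.088 at 4 h, 1.57-fold (adjusted p = 2.38e-06).

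The same held for Mef2c under MM401. It measured 1398, 1316 and 1339.9 CPM in water for 1 h and 2222, 2498 and 2076 CPM in bicuculline for 1 h. At 4 h it measured 1521 and 1474 CPM in water and 2157, 2282 and 2149 CPM in bicuculline. These groups did not overlap either, and the rises were 0.75 ± 0.088 at 1 h (adjusted p = 6.66e-07) and 0.55 ± 0.10 at 4 h (adjusted p = 1.17e-04). At 1 h 3 of the 4 genes were called, all higher, against 39.9% of all genes, 18.1% higher and 21.8% lower. At 4 h 3 of 4 were called, Mef2c higher and Srf and Mef2d lower, against 44.6% of all genes, 23% higher and 21.7% lower.

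No change of Mef2c was called between 1 h and 4 h of bicuculline. The difference was 0.07 on the log2 scale in DMSO (95% interval -0.12 to 0.25) and -0.04 in MM401 (-0.23 to 0.14), and the libraries of both times overlapped. Over all fits without 1 library, the log2 changes of the 4 rises of Mef2c lay between 0.50 and 0.81. Fits without a library of MM401 with water for 4 h left 1 there, and only their effect size is used. All 4 rises stayed called in each fit that left more than 1 library per group. They were not called when the shallow library was included. In that fit the log2 changes were 0.61 and 0.63 in DMSO at 1 h and 4 h and 0.75 and 0.97 in MM401, but the SE was 0.37 in each and the adjusted p ran from 0.0504 to 0.225.

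Marker levels also differed between water and bicuculline libraries and are given here beside Mef2c, which excitatory neurons, some inhibitory neurons and microglia are known to express. Summed inhibitory neuron markers (Gad1, Gad2, Slc32a1, Lhx6 and Sst) were 334 to 390.5 CPM in the 8 water libraries and 501 to 695 CPM in the 12 bicuculline libraries. Excitatory neuron markers were 644 to 813 CPM in water, 797 to 991 CPM at 1 h of bicuculline and 958 to 1118 CPM at 4 h. Microglia markers were 47.7 to 60.9 CPM in water, 44.2 to 58.1 CPM at 1 h and 58.4 to 74.5 CPM at 4 h. Oligodendrocyte lineage markers were 160.4 to 187 CPM in water and 188 to 216 CPM in bicuculline, with no overlap. Astrocyte markers were 414 to 696 CPM in water, 717 to 846 CPM at 1 h and 569 to 656 CPM at 4 h. The part of these shifts in the result for Mef2c or Srf was not tested.

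Mef2d went the other way at 4 h. In DMSO it measured 59.7, 57.2 and 60.9 CPM in water for 4 h and 49.6, 50.1 and 52.6 CPM in bicuculline for 4 h, with no overlap. It fell by 0.22 ± 0.060 on the log2 scale, 1.17-fold (adjusted p = 0.00398). In MM401 it measured 67.8 and 63.8 CPM in water for 4 h and 56.3, 50.4 and 57.5 CPM in bicuculline. There it fell by 0.27 ± 0.067, 1.20-fold (adjusted p = 0.00284). Between 1 h and 4 h of bicuculline Mef2d fell by 0.41 ± 0.060 in DMSO (adjusted p = 1.53e-05) and by 0.34 ± 0.060 in MM401 (adjusted p = 1.49e-04). The falls of Mef2d at 4 h were called in every fit without 1 library that left more than 1 library per group.

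At 1 h Mef2d was called in DMSO and not under MM401, in comparisons that differ in pretreatment and in the duration of the water reference. In DMSO with bicuculline for 1 h it measured 62.6, 68.5 and 70.7 CPM, above the 3 libraries with water for 4 h, a rise of 0.18 ± 0.060 (adjusted p = 0.0164). Under MM401 with water of the same duration as reference, it measured 74.2, 67.5 and 66.0 CPM in bicuculline and 68.7, 68.0 and 71.0 CPM in water, which overlap. That log2 change was -0.0011 (95% interval -0.13 to 0.12, adjusted p = 0.991). The difference between both changes was not tested. The rise in DMSO was not called without replicate 3 of DMSO with bicuculline for 1 h (adjusted p = 0.054), and it turned to -0.0082 with plain library totals. Under that scaling the median of all genes moved as well, from -0.04 to -0.23. Mef2d was 0.22 above the median under both scalings. Both differ by a single factor per library, which moves all genes nearly alike, so this likeness is built in and does not show that the rise holds.

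Mef2a differed little between groups. In DMSO it measured 296, 260.4 and 256 CPM in water for 4 h, 309, 267 and 305 CPM at 1 h of bicuculline and 348, 307 and 310.4 CPM at 4 h. The groups overlapped at 1 h, where the log2 change was 0.12 ± 0.070 (adjusted p = 0.181), and not at 4 h, where it rose by 0.25 ± 0.070, 1.19-fold (adjusted p = 0.00522). Under MM401 it measured 273, 251 and 264 CPM in water for 1 h and 301, 314 and 294 CPM in bicuculline, a rise of 0.21 ± 0.070 (adjusted p = 0.0221). At 4 h it measured 273 and 281 CPM in water and 303, 308 and 285 CPM in bicuculline, a log2 change of 0.11 ± 0.079 (adjusted p = 0.273). The call at 4 h in DMSO was lost without replicate 2 or 3 of the water group (0.21 and 0.18), and that at 1 h in MM401 without replicate 2 of bicuculline (0.18) or replicate 2 or 3 of water (0.18 and 0.22). At 1 h in DMSO Mef2a became a call without replicate 2 of bicuculline (0.18) or replicate 1 of water (0.19). Both called rises of Mef2a lost their call when a gene-length trend was taken out (0.05 at 4 h in DMSO, 0.06 at 1 h in MM401) or with the shallow library included, and turned to -0.019 and -0.0055 with plain library totals. Against the median of all genes they were 0.27 and 0.21 under TMM scaling and 0.28 and 0.21 with plain totals, a likeness that is built in, as for Mef2d.

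**Figure D2:**
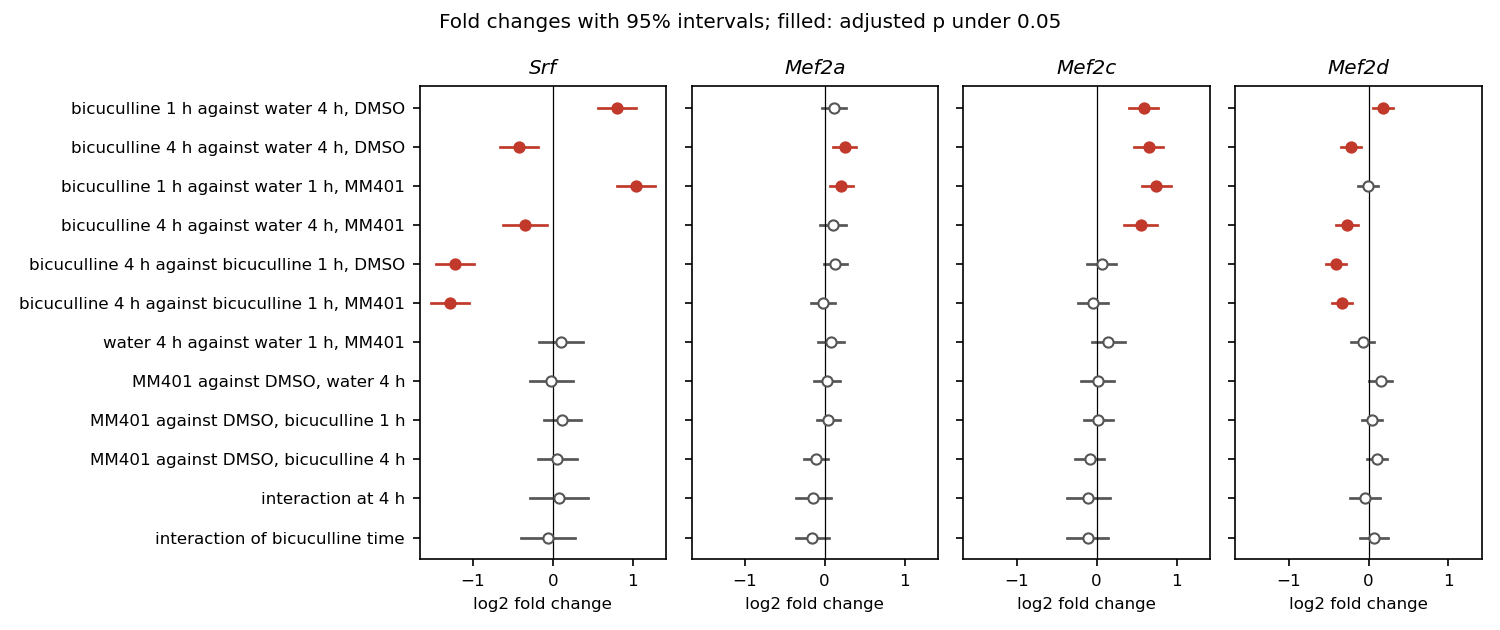
Log2 fold changes of Srf, Mef2a, Mef2c and Mef2d in 12 comparisons, with 95% intervals from the fit over 20 libraries; filled points have an adjusted p under 0.05. Srf and Mef2d lie below 0 from 1 h to 4 h of bicuculline, Mef2c lies above 0 in all 4 comparisons of bicuculline with water, and no filled point appears in the 6 comparisons from water over time downward.

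Ordered by group mean, Mef2c fell into 2 sets with a gap between them. The 4 bicuculline groups had means of 2196 to 2332 CPM and the 3 water groups 1351 to 1497 CPM, and neighbours within each set overlapped. For Srf, both groups with bicuculline for 1 h (14.2 and 15.4 CPM) stood above the 3 water groups (7.48 to 8.12 CPM), and both with bicuculline for 4 h (6.06 and 6.32 CPM) stood below them. For Mef2d, the 3 groups at 1 h and MM401 with water for 4 h (65.8 to 69.2 CPM) stood above the other 3 (50.7 to 59.2 CPM). For Mef2a, every group overlapped with the next in the order, from 262 to 322 CPM.

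Ratios between the Mef2 genes within a library do not change with a single scaling factor per library, though a correction for gene length would move them. They were higher for Mef2c with bicuculline. Per kilobase, Mef2c over Mef2a was 4.41 to 4.89 in the 8 water libraries (median 4.58) and 5.98 to 6.97 in the 12 bicuculline libraries (median 6.43). Mef2c over Mef2d was 3.44 to 4.97 in water (median 4.07) and 5.46 to 9.08 in bicuculline (median 6.78). Neither ratio overlapped between treatments. Mef2a over Mef2d was 0.773 to 1.04 in water and 0.817 to 1.47 in bicuculline, which overlap. Its highest group was DMSO with bicuculline for 4 h, at 1.33 ± 0.123 (SD, n = 3), against 0.958 ± 0.0795 in DMSO with water for 4 h. A ratio shows unequal change and not which gene changed.

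**Figure D3:**
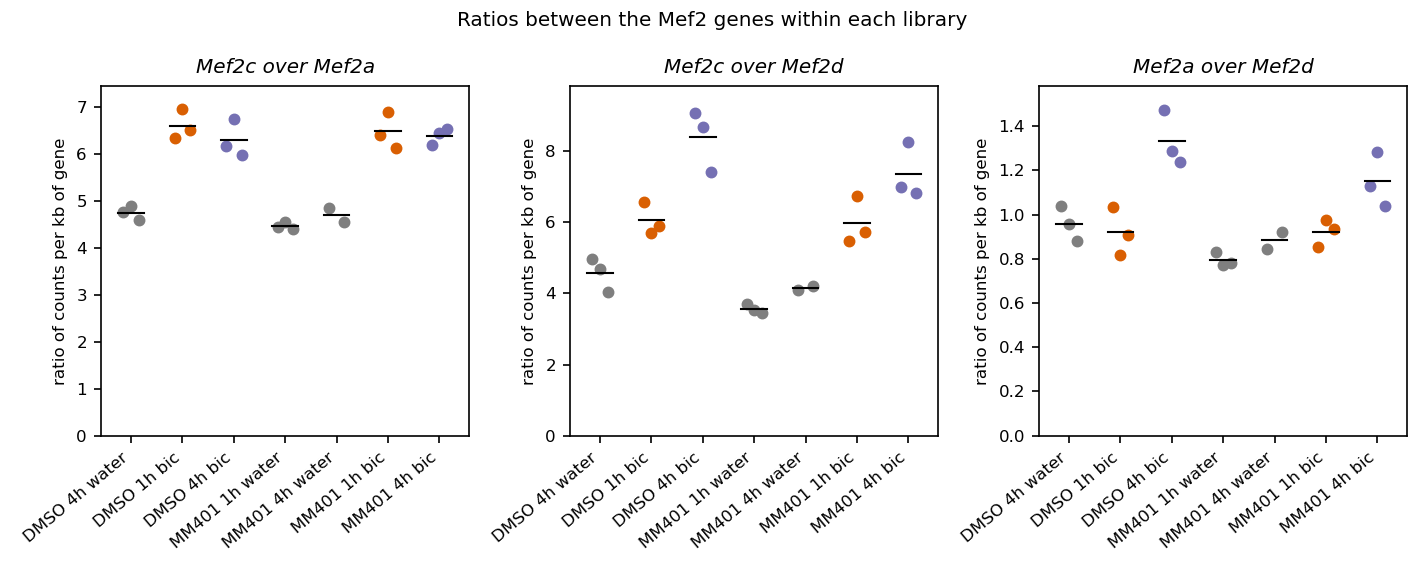
Ratios of counts per kilobase between pairs of Mef2 genes within each of 20 libraries (linear axes from 0, a point per library, a bar at the group mean). Mef2c over Mef2a and Mef2c over Mef2d are higher in every bicuculline library than in every water library, while Mef2a over Mef2d overlaps between treatments.

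MM401 itself gave no called change of these genes. Against DMSO in water for 4 h, the log2 changes were -0.02 for Srf (95% interval -0.29 to 0.25), 0.03 for Mef2a (-0.13 to 0.20), 0.02 for Mef2c (-0.19 to 0.22) and 0.15 for Mef2d (0.01 to 0.29). Mef2d was higher in both MM401 libraries (63.8 and 67.8 CPM) than in all 3 DMSO libraries (57.2 to 60.9 CPM), with an unadjusted p of 0.0344 and an adjusted p of 0.346 (edgeR). Over all genes 14 were called there (0.0826%), all higher, and 2194 had an unadjusted p under 0.05. DESeq2 called 166, of which 107 were higher and 59 lower. Leaving out 1 library, edgeR called 1272 (751 higher and 521 lower) without replicate 1 of DMSO with water for 4 h, and 0 without replicate 2 or 3 of that group.

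With bicuculline the intervals were similar in width. At 1 h the log2 change of MM401 against DMSO was 0.12 for Srf (95% interval -0.11 to 0.35), 0.05 for Mef2a (-0.10 to 0.19), 0.02 for Mef2c (-0.16 to 0.21) and 0.04 for Mef2d (-0.08 to 0.17), where 1 gene of all was called (0.0059%). At 4 h it was 0.06 for Srf (-0.19 to 0.31), -0.11 for Mef2a (-0.25 to 0.04), -0.09 for Mef2c (-0.27 to 0.10) and 0.11 for Mef2d (-0.02 to 0.23). There 0 genes were called by edgeR and by DESeq2 (0%), and 1309 had an unadjusted p under 0.05.

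The response to bicuculline was compared between pretreatments by interaction terms. At 4 h, the response under MM401 minus that under DMSO was 0.08 for Srf (95% interval -0.29 to 0.44), -0.14 for Mef2a (-0.36 to 0.08), -0.10 for Mef2c (-0.37 to 0.17) and -0.04 for Mef2d (-0.23 to 0.15). The change from 1 h to 4 h differed by -0.06 for Srf (-0.40 to 0.28), -0.15 for Mef2a (-0.36 to 0.05), -0.11 for Mef2c (-0.37 to 0.15) and 0.07 for Mef2d (-0.11 to 0.25). None of these was called. Over all genes edgeR called 0 in each (0%), with 2552 and 1195 genes at an unadjusted p under 0.05. Without replicate 1 of DMSO with water for 4 h it called 1551 for the interaction at 4 h, 400 higher and 1151 lower. For the interaction at 4 h DESeq2 gave an adjusted p for 2075 genes and called 472, 3 higher and 469 lower. For that of time it gave one for 21464 genes and called 0. The responses at 1 h have references of different duration, and their difference was not tested.

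Time in water did not give a called change either. From 1 h to 4 h of water under MM401 the log2 changes were 0.10 for Srf, 0.08 for Mef2a, 0.15 for Mef2c and -0.07 for Mef2d, where 0.867% of all genes were called. The libraries of both times, 3 at 1 h and 2 at 4 h, did not overlap for Mef2a, Mef2c and Mef2d. Their adjusted p was 0.864, 0.704 and 0.832 (edgeR), and how many of all genes separate likewise was not counted. With water for 4 h as the reference for bicuculline for 1 h under MM401, a setting chosen after seeing the data, the log2 changes were 0.94 for Srf, 0.60 for Mef2c, 0.13 for Mef2a (adjusted p = 0.202) and 0.07 for Mef2d.

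Across the 20 libraries the 4 genes fell into pairs, given as a description over libraries that share treatments. The pairs also split by gene length: Mef2c and Mef2a span 163047 and 141697 bases, Srf and Mef2d 9325 and 29721. The part of a gene-length trend in these correlations was not tested. Pearson correlations of log2 CPM were 0.84 between Mef2c and Mef2a and 0.70 between Srf and Mef2d. They were 0.23 between Mef2c and Srf, -0.01 between Mef2a and Srf, -0.35 between Mef2d and Mef2c and -0.47 between Mef2d and Mef2a.

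The genes most alike in pattern were sought among 11783 genes by the same correlation. For Srf they were Egr1 at 0.96, Entpd6 at 0.95, Fars2 at 0.95, Slc35e1 at 0.94 and Hdac4 at 0.94. Egr1 is an immediate early transcription factor on the list of rapid SRF targets, and Hdac4 a class IIa histone deacetylase on the list of MEF2 repressors. For Mef2c they were Ptchd1 and Plppr4 at 0.99 each, Pcdh19 at 0.99, Zfp948 at 0.98 and Ift57 at 0.98. For Mef2a they were Cnot6l at 0.98, Cpsf6 at 0.96, Rasal2 at 0.95, Gpm6a at 0.94 and Ube3a at 0.94, the last a ubiquitin ligase on the list of neuronal MEF2 targets. Among those for Mef2d were Cacng4 at 0.95, Fam19a5 at 0.95, Camk2g at 0.94 and Hlcs at 0.94.

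Genes around SRF and MEF2 were read from 6 lists, all chosen with earlier results of these data known. Their counts can be set against the shares of all genes called above. Among the 6 SRF cofactor genes, 4 rose and 2 fell at 1 h in DMSO, and 4 rose and 1 fell at 4 h. Mrtfa, an actin-sensing coactivator, went from 236 ± 13.8 CPM in water to 329 ± 13.0 CPM at 4 h (SD, n = 3), a rise of 0.48 ± 0.065 on the log2 scale (edgeR adjusted p = 2.84e-06). Its relative Mrtfb fell by 0.19 at 1 h and rose by 0.33 ± 0.064 at 4 h (adjusted p = 1.87e-04), though the rise was not called with plain library totals (0.058) or all 21 libraries (0.31). Among the ternary complex factors, Elk3 rose by 0.50 ± 0.092 at 1 h and Elk1 fell by 0.27 at 1 h and by 0.21 at 4 h. Myocd, which encodes myocardin, rose by 0.98 at 1 h and 1.34 at 4 h, but from only 0.25 ± 0.067 CPM in water. The list's median log2 change was 0.24 at 1 h and 0.31 at 4 h, against -0.04 and -0.02 for all genes. With plain library totals 2 rose and 2 fell at each time, with medians of 0.05 and 0.03. The fall of Mrtfb at 1 h was not called with RLE factors (-0.15) and those of Elk1 were not called with a gene-length trend taken out (-0.14 and -0.11). Under MM401, 1 rose and 1 fell at 1 h, and 5 rose and 1 fell at 4 h. There plain library totals gave 0 rising and 2 falling at 1 h (median -0.07, against 0.14). At 4 h 3 rose and 1 fell, both with plain library totals and with all 21 libraries.

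Rapid activity-induced SRF targets were listed because they are known to rise with activity, and with earlier results of these data known, so their direction at 1 h is no independent evidence. At 1 h 12 of 12 rose in DMSO and 12 of 12 in MM401, with median log2 changes of 2.59 and 2.71. With plain library totals 11 of 12 were called higher in each, and with all 21 libraries 11 of 12 in MM401. The largest rises in DMSO were those of Fosb (5.77 ± 0.16) and Egr4 (3.42 ± 0.18), both transcription factor genes. At 4 h, 6 were still higher in DMSO and 2 were lower, with a median of 0.69 (0.42 with plain library totals). Fosb (3.61 ± 0.15) and the nuclear receptor gene Nr4a1 (1.87 ± 0.094) were the highest then. Egr3 and Egr1 were the 2 called lower, falling by 1.07 ± 0.10 and 0.60 ± 0.098 on the log2 scale. Egr1 measured 85.1 ± 13.0 CPM in water for 4 h, 221 ± 18.3 CPM at 1 h and 56.2 ± 5.96 CPM at 4 h of bicuculline (SD, n = 3), a course above and then below water as for Srf. Under MM401, 9 rose and 2 fell at 4 h (8 and 1 with all 21 libraries, 7 and 2 with plain library totals). From 1 h to 4 h all 12 fell in DMSO and 11 of 12 in MM401.

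The SRF targets of the actin cytoskeleton and matrix, with 15 of 16 tested, had lower median changes than the rapid targets. The difference between both lists was not tested. In DMSO 8 rose and 1 fell at 1 h (median 0.80), and 7 rose and 1 fell at 4 h (median 0.16). Ccn1, which encodes a secreted matrix protein, rose most at 1 h, from 20.3 ± 4.40 to 197 ± 29.0 CPM (3.28 ± 0.14 on the log2 scale), and was still 1.22 ± 0.13 higher at 4 h. Ccn2, of the same protein family, rose by 1.64 ± 0.18 at 1 h. Fhl2, a LIM-domain cofactor, fell by 0.16 at 1 h and by 0.89 ± 0.065 at 4 h. Acta2, smooth muscle actin, rose by 1.63 ± 0.55 at 4 h but lay below 0.2 CPM in its group means. The fall of Fhl2 at 1 h was not called under 5 settings: RLE factors and DESeq2 (-0.12 in each), all 21 libraries (-0.14), only the groups compared (-0.13) and no filter on low counts (-0.16). With plain library totals 3 genes of the list rose and 2 fell at 4 h, with a median of -0.12, where the median of all genes was -0.30 and 1820 genes rose and 7867 fell. With a gene-length trend taken out, 12 rose and 1 fell at 1 h, and 7 rose and 1 fell at 4 h with a median of 0.33. Under MM401, 10 rose and 1 fell at 1 h, and 7 rose and 1 fell at 4 h. Endothelial, mural and fibroblast cells also express several of these genes. Their summed markers are given above, and endothelial and mural markers were 8.10 to 11.2 CPM in water and 10.5 to 13.5 CPM in bicuculline; their part in these values was not tested.

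**Figure D4:**
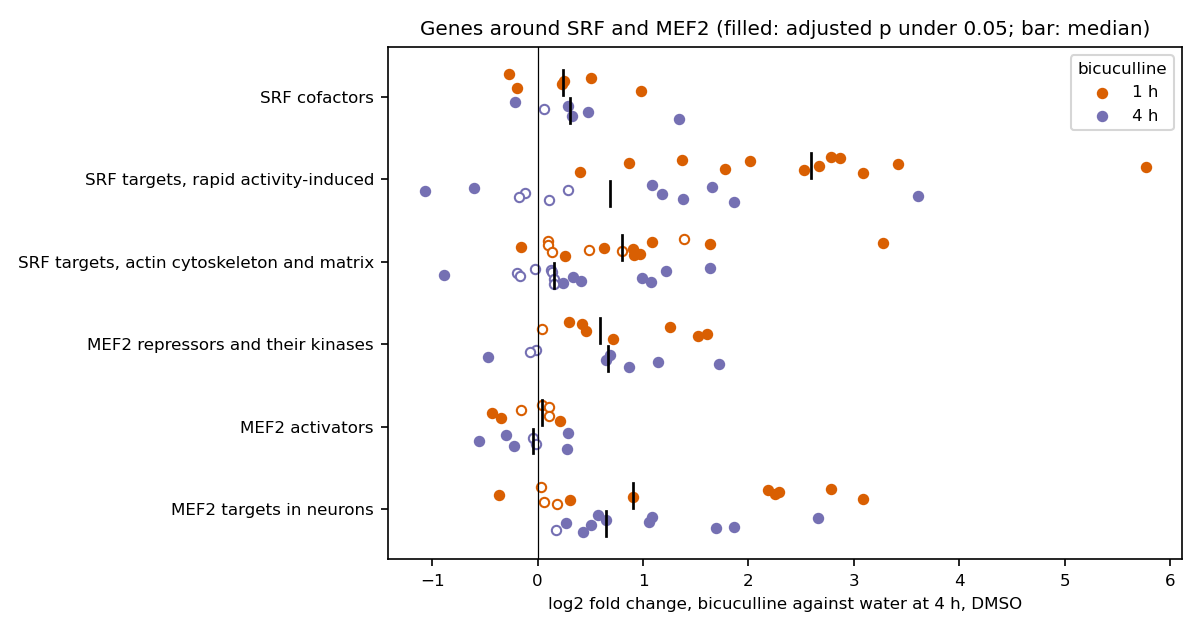
Log2 fold changes of the genes on 6 lists in DMSO, bicuculline for 1 h (upper row of each list) and 4 h (lower row) against the same water libraries; filled points have an adjusted p under 0.05 and the bars are list medians. All 12 rapid SRF targets lie above 0 at 1 h and are lower at 4 h, while the neuronal MEF2 targets hold a median of 0.91 and 0.65.

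Of the 8 genes for MEF2 repressors and the kinases that act on them, 7 rose and none fell at 1 h in DMSO, and 5 rose and 1 fell at 4 h. The list pools repressors with kinases, so its counts and medians do not measure MEF2 repression. The median log2 changes were 0.59 and 0.67, with 0.41 and 0.40 under plain library totals and 0.35 and 0.51 with a gene-length trend taken out. Salt-inducible kinases, which phosphorylate class IIa histone deacetylases, led both: Sik1 rose by 1.61 ± 0.084 at 1 h and 1.14 ± 0.083 at 4 h, and Sik2 by 1.52 ± 0.12 and 1.72 ± 0.12. Sik2 measured 219.7 ± 40.9 CPM in water for 4 h and 724 ± 13.5 CPM with bicuculline for 4 h (SD, n = 3). Hdac7, a class IIa deacetylase, was the 1 that fell at 4 h, by 0.47 ± 0.11. With plain library totals, or with a gene-length trend taken out, 3 fell at 4 h. Under MM401, 6 rose and 1 fell at 1 h, and 4 rose and 1 fell at 4 h.

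Of the 7 genes for MEF2 activators, 1 rose and 2 fell at 1 h in DMSO, where 20% of all genes rose and 24.5% fell. At 4 h 2 rose and 3 fell, where 23.7% of all genes rose and 25.5% fell. The medians were 0.04 and -0.05. Mapk7, the kinase ERK5, fell by 0.43 ± 0.11 and 0.56 ± 0.11, and its upstream kinase gene Map2k5 fell by 0.30 ± 0.047 at 4 h. Of the calcineurin subunits, Ppp3cb, a catalytic subunit, fell by 0.35 ± 0.081 at 1 h and Ppp3r1, the regulatory subunit, rose by 0.21 ± 0.057 at 1 h and 0.28 ± 0.057 at 4 h. Camk4, a calcium-dependent kinase, rose by 0.28 ± 0.079 at 4 h. The rises of Ppp3r1 and Camk4 were not called with plain library totals (0.018, 0.0035 and 0.016), under which 0 rose, with 4 falling at 1 h and 5 at 4 h. With a gene-length trend taken out, 1 rose and 4 fell at 1 h, and 1 rose and 5 fell at 4 h, with medians of -0.18 and -0.24. Under it Camk4 (0.057) and Mapk7 at 1 h (-0.23) were not called. Under MM401, 2 rose and 1 fell at 1 h, and 1 rose and 4 fell at 4 h. There 0 rose with plain library totals, with 4 falling at 1 h and 5 at 4 h. With all 21 libraries 0 rose as well, with 1 falling at 1 h and 2 at 4 h.

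Of the 11 neuronal MEF2 targets, 7 rose, 1 fell and 3 were not called at 1 h in DMSO, and 10 rose and none fell at 4 h, with medians of 0.91 and 0.65. This list too was chosen with earlier results of these data known and shares genes with the rapid SRF targets, so its direction is no independent evidence. With plain library totals 6 rose and 1 fell at 1 h, and 8 rose and none fell at 4 h, with medians of 0.71 and 0.38. Nr4a1 (3.09 ± 0.098) and Arc (2.78 ± 0.16), a regulator of glutamate receptor traffic, rose most at 1 h, and both are also on the list of rapid SRF targets. Bdnf, a neurotrophin gene, rose most at 4 h, by 2.66 ± 0.11. The potassium channel gene Kcna1 fell by 0.37 ± 0.079 at 1 h and rose by 0.27 ± 0.078 at 4 h, a rise that turned to -0.0086 with plain library totals and was not called with all 21 libraries (0.25). Under MM401, 8 rose and 1 fell at 1 h, and 9 rose and none fell at 4 h. No gene of the 6 lists was called between MM401 and DMSO, in either interaction, or between 1 h and 4 h of water, where 0% to 0.867% of all genes were called, so this says nothing particular to the lists.

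With the shallow library included, fewer genes of 5 of the lists were called in DMSO at 1 h, while all 12 rapid SRF targets were. Of the actin and matrix list 7 rose and 0 fell, 2 SRF cofactors rose and 1 fell, 5 MEF2 repressors and kinases rose, 0 MEF2 activators rose and 2 fell, and 6 neuronal MEF2 targets rose and 1 fell. Of the genes named above, Myocd (adjusted p = 0.0605), Mrtfb (0.468), Fhl2 (0.295) and Ppp3r1 (0.102) were then not called at 1 h, nor Camk4 (0.101) and Ppp3r1 (0.0608) at 4 h. With only the groups compared, Mrtfb (0.186) and Mapk7 (0.0518) were not called at 1 h.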

How the data were processed

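The authors deposited unnormalized whole-number counts for each gene in 21 libraries. The whole gene was the counted feature, per the file headers. The submitters' processing notes name Bowtie2, UMI-tools, featureCounts, DESeq2 and deepTools and build mm10; versions and the use of strand are not given in the sources used here. Listed starts were 1 below the RefSeq start for 68.2% of 24459 matched symbols, so they probably count from 0.

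Members and gene lists were chosen with earlier results of these data known. R 4.3.3, edgeR 4.0.16 (robust quasi-likelihood test, TMM, filterByExpr at its minima of 10 per library and 15 in total) and limma 3.58.1 fitted 20 libraries of 7 groups in 1 model. P-values were two-sided and adjusted over all 16959 genes (Benjamini-Hochberg, threshold 0.05). The fit was tested on simulated data. Named list genes were up to 2 with the largest rise and 2 with the largest fall among those called in DMSO at each time; alike genes were the 5 highest correlations among genes of mean CPM of at least 2, without predicted and small RNA genes, and 1 of them is not reported here.

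Alternatives were DESeq2 1.42.0, no filter, plain library totals, RLE factors, offsets for a gene-length trend, all 21 libraries, only the groups compared, a replicate block and leaving out each library. Deviations of same-numbered samples had every correlation over 0.1 only for MM401 against DMSO with bicuculline at 4 h (0.107 to 0.172), and the block changed no call there. Over all comparisons they ran from -0.23 to 0.24. No 2 replicates agreed within sampling noise.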

Additional observations from a re-analysis of the deposited data

How the results depend on the processing

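Over 9 alternatives, 370 of 386 refitted values of the 48 results (4 genes in 12 comparisons) kept their side of the threshold, and their direction where they were called. With all 21 libraries, adjusted p-values (edgeR) passed 0.05 for Mef2c in bicuculline against water in DMSO at 1 h (log2 change 0.61, adjusted p = 0.225) and 4 h (0.63, 0.191) and in MM401 at 1 h (0.75, 0.147) and 4 h (0.97, 0.0504), for Mef2a in DMSO at 4 h (0.23, 0.0669) and MM401 at 1 h (0.21, 0.116), and for Srf in MM401 at 4 h (-0.33, 0.114). With plain library totals, Mef2d in DMSO at 1 h turned to -0.0082, Mef2a in DMSO at 4 h to -0.019 and in MM401 at 1 h to -0.0055, and Mef2d in MM401 at 1 h became a call (-0.22, adjusted p = 0.0181). That scaling moves all genes: the median log2 change in DMSO at 1 h went from -0.04 to -0.23 and the genes called from 3396 higher and 4161 lower to 1836 higher and 6818 lower. With offsets for a gene-length trend, Srf in DMSO at 4 h (-0.24), Mef2a in DMSO at 4 h (0.048) and Mef2a in MM401 at 1 h (0.059) were no longer called; Mef2c stayed called at 0.40 to 0.58. With only the groups compared, Mef2a in DMSO at 4 h was 0.23 (adjusted p = 0.0606). With water for 4 h as reference, chosen after seeing the data, Mef2a in MM401 at 1 h was 0.13. The causes were not tested.

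Leaving out 1 library at a time, the log2 change ranged from -0.41 to -0.32 for Srf in MM401 at 4 h. Its lost calls are named above and not counted here, since some of these fits left 1 library in the water group. It ranged from 0.080 to 0.19 for Mef2a in DMSO at 1 h (called in 2 of 6 fits) and 0.18 to 0.32 at 4 h (4 of 6). For Mef2a in MM401 at 1 h it was 0.18 to 0.24 (3 of 6), and for Mef2d in DMSO at 1 h 0.17 to 0.23 (5 of 6). Of the 31 results not called, 22 changed sign in some fit. With the replicate block, Srf in DMSO at 1 h was 0.80 and Mef2c 0.59, and no call of the 4 genes changed. Over all genes the block called no fewer in any comparison, with 8035 against 7557 in DMSO at 1 h. Every correlation of same-numbered samples was over 0.1 in 1 of 10 comparisons. That rule does not exclude weaker pairing, as the median of the 27 correlations was 0.089. DESeq2 gave no adjusted p for Srf and Mef2d in the interaction at 4 h.

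Counts over all genes moved by over 1.5 times in these cases, leaving aside fits with 1 library left in a group. All 21 libraries gave 3745 and 3646 genes from 1 h to 4 h of bicuculline in DMSO and MM401 (main 5805 and 5691), 19 for water over time (main 147) and 0 for MM401 in water (main 14). DESeq2 gave 265, 166, 13 (main 1, MM401 at 1 h of bicuculline) and 472 (interaction at 4 h). Only the groups compared gave 328 and 0, plain totals 4 for MM401 in water, the gene-length offsets 235 for water over time, and the block 4 for MM401 at 1 h of bicuculline. Leaving out 1 library, MM401 in water gave 1272 without replicate 1 of DMSO with water for 4 h and 0 without replicate 2 or 3 of that group. The interaction at 4 h (main 0) gave 1551 without replicate 1 of DMSO with water for 4 h. Water over time gave 57 and 61 without replicates 2 and 3 of water for 1 h. MM401 at 1 h of bicuculline gave 2 without replicate 3 of DMSO, and 0 without replicate 2 of DMSO or replicate 3 of MM401.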

Other observations

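The library left out, replicate 3 of MM401 with water for 4 h, detected 12538 genes, against 18840 to 19277 in the other 20. It held 84 counts of Mef2a, 75 of Mef2c, 17 of Mef2d and 0 of Srf. In CPM of the unscaled library total, Mef2a was 265 (95% Poisson interval 212 to 328), against 284 and 291 in replicates 1 and 2 of its group. Mef2d was 53.7 (31.3 to 85.9), against 70.5 and 66.3. Mef2c was 237 (186 to 297), against 1582 and 1530.2, so it lay far below while the other 2 did not. The 0 counts of Srf allow up to 9.47 CPM (3 counts), above the 8.13 and 8.57 of the other replicates, so a difference was not detectable at this depth. The intervals cover counting error only. Counts per kilobase in this library were 0.593 for Mef2a, 0.572 for Mef2d and 0.46 for Mef2c. Across genes, the Spearman correlation of count with gene length was 0.67 in this library and 0.55 to 0.59 in the others. The 12 rapid SRF targets had 5 counts in all.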
